A study of Mus musculus with 6 samples.

Results

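The apolipoprotein L genes described here are Apol6, Apol7c, Apol8, Apol9a, Apol9b and Apol10b, 6 of the 26012 genes measured by RNA-seq in infarcted mouse hearts. They were chosen by name as members of the Apol cluster on chromosome 15, on condition that their mean over all 6 hearts was at least 1 normalized count, and all 6 met it. The choice was made with the difference between the groups known, so their fold changes and p-values are given as a description and not as a test. The lowest mean among them was that of Apol7c, at 2.30 normalized counts. Of the other Apol genes measured, Apol11b had a mean of 0.641 and Apol7b a mean of 0.472, below that limit, and Apol7a, Apol7e and Apol7d were above it but had not been named.

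The study asked what miR-19a and miR-19b do in the heart after myocardial infarction (MI). Male C57BL/6 mice, 8 weeks of age, had the left anterior descending (LAD) coronary artery tied off. At the same operation 10 μg of mimic was injected into the heart, either control mimic (3 hearts) or miR-19a/19b mimics (3 hearts). Ventricular tissue was taken on day 4 after MI, so every heart, control hearts included, was infarcted and injected. A mimic is a synthetic RNA duplex that the cell uses as the mature miRNA. The study's methods describe the hearts of a group as biological replicates.

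Apolipoprotein L proteins are named after a human plasma protein carried on high-density lipoprotein that protects against trypanosomes. Most other members lack a secretion signal and stay inside the cell, where they associate with lipids and membranes. Interferons and inflammatory cytokines induce several Apol genes. In the mouse, Apol9a and Apol9b are interferon-induced genes whose products have been described as antiviral, and Apol7c has been described in dendritic cells. Human APOL6 has been described as promoting cell death when overexpressed. A miRNA acts by pairing its seed, bases 2 to 8, with sites that lie mostly in the 3′ UTR of an mRNA.

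The mature sequences of the injected miRNAs are shown first, because they set which sites could be paired. They are the RefSeq entries (GRCm38.p6), 5′ to 3′, with the seed in capitals.
mmu-miR-19a-3p: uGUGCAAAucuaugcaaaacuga
mmu-miR-19b-3p: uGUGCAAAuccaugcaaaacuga
Both have the same seed and differ by U11C, counted from the 5′ end, with the base of miR-19a first. The sites searched were TTTGCAC, TTTGCACA and TTGCACA, the first of which is contained in the second and the last of which overlaps it. Of the 6 genes, Apol6 alone held a match in its 3′ UTR. It had TTGCACA 2 times in 1162 bases and neither other site, and the first copy began at base 402 of the UTR, with the match in capitals: cagagccatgcTTGCACAcaaaggttgtca. The 3′ UTRs of Apol9a and Apol9b, 444 bases each, and of Apol10b, 1152 bases, held none of these letters, nor did those of Apol7c and Apol8. For comparison, 2907 of 15820 tested genes with an annotated 3′ UTR, or 18.4%, held at least 1 match.

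The promoters are shown next, because interferons are known to induce several Apol genes. RefSeq promoter windows (GRCm38.p6, 250 bases before to 50 after a start) were found for 5 of the 6 genes. They were searched on both strands for GAAA, any 2 bases and GAAA again, the core of the interferon-stimulated response element, which is bound by complexes of interferon regulatory factors. The stretches below run 5′ to 3′ on the strand of the gene. Capitals mark the match, which in these genes lies on the opposite strand and so reads as its reverse complement.
Apol9a, chr15:77411105-77411164, minus strand: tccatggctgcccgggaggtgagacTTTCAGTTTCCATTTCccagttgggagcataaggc
Apol9b, chr15:77729010-77729069, plus strand: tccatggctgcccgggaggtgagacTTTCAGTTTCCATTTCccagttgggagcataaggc
Apol10b, chr15:77596095-77596154, minus strand: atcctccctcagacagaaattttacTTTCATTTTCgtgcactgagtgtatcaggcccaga
Apol7c, chr15:77533336-77533395, minus strand: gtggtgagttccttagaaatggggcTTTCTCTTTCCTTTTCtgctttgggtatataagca
The match occurred in Apol9a, Apol9b, Apol10b and Apol7c. It occurred 2 times, overlapping, in Apol9a, Apol9b and Apol7c, and 1 time in Apol10b. The stretches of Apol9a and Apol9b are the same 60 bases, and their longest common run was 278 of the 300 bases of the window. The window of Apol8 held no match. That window, chr15:77756961-77757260, lies apart from the gene as measured, whose model ends at 77755229. Of the Apol genes measured but not named, Apol7e and Apol11b also held the match in their windows, and Apol7a and Apol7b did not. Apol7e had a log2 difference of -0.67 (limma p 0.342), and Apol11b was below a mean of 1. Over all genes, 1131 of 32851 windows (3.44%) held the motif. Counted per gene, it was found for 1079 of 27025 genes (3.99%), and for 21 of 40 genes (52.5%) of an interferon response list with a window. The gamma-activated site, TTCNNNGAA, was in none of the windows of the 5 described genes and in 8.30% of all windows. These matches are letters in a window and not measured binding. Whether they have a part in the differences between the groups was not tested.

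Between 19398196 and 23645308 reads were assigned to genes in each heart. The deposited values are counts divided by a size factor per library, here called normalized counts, and 1 read was worth between 0.864 and 1.11 of them. MiR-19a/19b mimic replicate 3 stood apart, with a chi-square per degree of freedom of 110 and 123 against the other hearts of its group, where other pairs within a group gave 9.49 to 24.4. Its summed level of 8 cardiomyocyte markers, 291520 normalized counts, was the lowest of the 6 hearts, which otherwise held 477510 to 863850. In miR-19a/19b mimic replicate 1, 8 skeletal muscle genes summed to 3039, against 29.3 to 71.7 in the other hearts. For some Apol genes, values without 1 of these hearts are also given, while lists and ratios are given with all hearts.

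Apol9a and Apol9b, the most abundant Apol genes here, stood at 48.3% and 53.0% of the control level in hearts given miR-19a/19b mimics, and Apol10b at 63.7%. Normalized counts of these 3 genes did not overlap between the groups. Apol6 overlapped, with 1 heart of the miR-19a/19b group above all controls and the other 2 below them. Apol7c and Apol8 rested on few reads.

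Apol9a (ENSMUSG00000057346) lies at chr15:77403789-77411080 on the minus strand. Its normalized counts were 178, 153 and 152 in control mimic replicates 1, 2 and 3, and 69.9, 76.3 and 87.3 in the same order of replicates in the miR-19a/19b hearts. The highest miR-19a/19b heart stood well below the lowest control. The means were 161 ± 14.6 and 77.8 ± 8.79 normalized counts (SD, n = 3 each), so that the miR-19a/19b hearts had 48.3% of the control level. These values rested on 481 reads in the control hearts and 240 in the miR-19a/19b hearts. On log2(normalized count + 1), the difference was -1.04 with a standard error of 0.16 (95% confidence interval -1.40 to -0.68). The limma p was 0.000113, the fifth smallest of 21126 genes, and the adjusted p was 0.396. Without miR-19a/19b mimic replicate 3, the difference was -1.13 with an adjusted limma p of 0.0109. DESeq2 on the recovered reads gave -1.04 with an adjusted p of 0.000782.

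Apol9b (ENSMUSG00000068246) lies at chr15:77729121-77736381 on the plus strand, on the far side of the cluster from Apol9a. Its normalized counts were 175, 157 and 159 in the control hearts and 68.9, 95.9 and 95.1 in the miR-19a/19b hearts. Again all 3 miR-19a/19b hearts were below all controls, and replicate 1 was the lowest for both genes. The means were 164 ± 9.65 and 86.6 ± 15.4 normalized counts (SD, n = 3 each), or 53.0% of the control level, on 489 and 267 reads. The log2 difference was -0.92 with a standard error of 0.17 (95% confidence interval -1.32 to -0.53), with a limma p of 0.000519 and an adjusted p of 0.561. Its adjusted limma p was 0.0230 without miR-19a/19b mimic replicate 3, and DESeq2 gave an adjusted p of 0.0121.

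Apol9a and Apol9b are near-identical copies, so their separate values are uncertain. Their coding sequences, 933 bases each, shared 919 bases and differed at 14, an identity of 98.5%. Any other pair of the 6 genes shared between 63.6% and 69.8% of aligned coding bases. Of the 150-base windows of the Apol9a transcript, 28.1% occurred letter for letter in Apol9b, and 23.7% of those of Apol9b occurred in Apol9a. A read from such a window can be placed on 1 of the genes only by its mate, since reads were paired, and these shares do not take the mates into account. How the counting treated such pairs can move reads out of both genes. For Apol7c the share was 0.314%, all with the pseudogene Gm8221, and for the other 3 genes it was 0. The ratio of Apol9b to Apol9a stayed between 0.981 and 1.26 over the 6 hearts. Summed, Apol9a and Apol9b gave 353, 310.3 and 311 normalized counts in the control hearts and 139, 172 and 182 in the miR-19a/19b hearts. The sum was 325 ± 24.2 against 164 ± 22.8 (SD, n = 3 each).

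Apol10b (ENSMUSG00000050014) lies between them, at chr15:77584158-77596125 on the minus strand. Normalized counts were 113, 86.9 and 72.9 in the control hearts and 52.7, 68.0 and 52.7 in the miR-19a/19b hearts. The gap between the groups was small, from 68.0 in miR-19a/19b mimic replicate 2 to 72.9 in control mimic replicate 3. The means were 90.8 ± 20.2 and 57.8 ± 8.84 (SD, n = 3 each), or 63.7% of the control level, on 269 and 176 reads. The log2 difference was -0.63 with a standard error of 0.22 (limma p 0.0180, adjusted p 0.9996). It rested partly on single hearts, with a p of 0.0802 without control mimic replicate 1 and 0.0536 without miR-19a/19b mimic replicate 1.

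**Figure D1:**
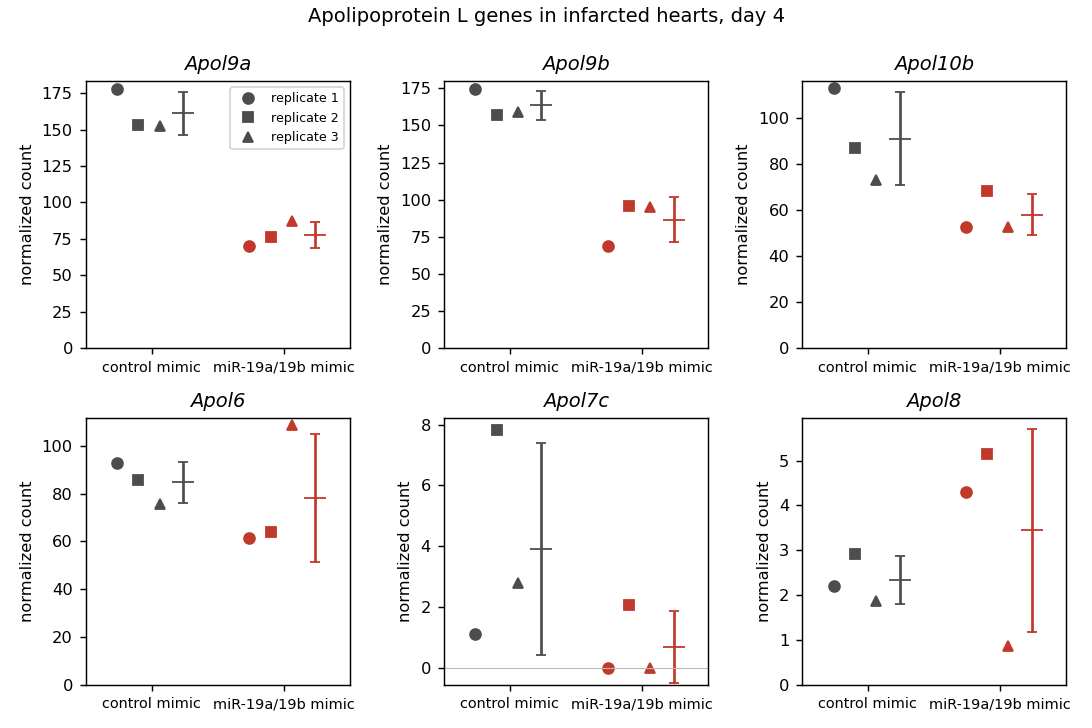
Normalized counts (vertical axis, linear) of each of the 6 Apol genes in the 3 control mimic hearts (grey) and the 3 miR-19a/19b mimic hearts (red), with the mean and SD of each group as a bar beside the points. Apol9a, Apol9b and Apol10b show groups that do not overlap, Apol6 has 1 red point above all grey ones, and Apol7c and Apol8 stay below 8 normalized counts.

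Apol6 (ENSMUSG00000033576) lies at the other end of the cluster, at chr15:77044729-77057107 on the plus strand. Normalized counts were 92.8, 85.9 and 75.7 in the control hearts and 61.3, 63.9 and 109 in the miR-19a/19b hearts. Replicates 1 and 2 of the miR-19a/19b group were below all controls, and replicate 3, the heart that stood apart, was above all of them. The means were 84.8 ± 8.63 and 78.1 ± 26.8 (SD, n = 3 each), on 253 and 245 reads, and the log2 difference was -0.16 with a standard error of 0.24 (limma p 0.516). It was -0.43 (p 0.0522) without miR-19a/19b mimic replicate 3 and -0.02 (p 0.948) without miR-19a/19b mimic replicate 1.

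Apol6 overlaps Mb, which encodes the oxygen store myoglobin and is one of the most abundant heart transcripts, on the opposite strand. Of the 4498 exon bases of Apol6, 1163 (25.9%) lie within the Mb gene, and 64 of these lie within its exons. The kit named in the methods is taken to be the form that does not mark strand, and the setting of the counting is not stated. Reads from the exon bases they share could then not be told apart. The same holds for any reads of unspliced Mb RNA over the rest of the 1163 bases. Mb had 44931, 36803 and 53491 normalized counts in the control hearts and 73446, 80356 and 22244 in the miR-19a/19b hearts. Its lowest value fell in the heart with the highest Apol6, and its 2 highest in the hearts with the lowest.

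Apol7c (ENSMUSG00000044309), at chr15:77524867-77533315 on the minus strand, had 1.11, 7.81 and 2.80 normalized counts in the control hearts and 0, 2.06 and 0 in the miR-19a/19b hearts. These were 12 reads in all against 2, and the groups overlapped. The ratio of miR-19a/19b to control was 0.164, with an exact 95% interval of 0.0178 to 0.735 that covers counting error only. A zero in a heart allows up to 3 reads, which is 2.59 to 3.23 normalized counts in those 2 hearts. The fitted log2 difference was -1.51 with a standard error of 0.73 (limma p 0.0686), and -3.44 with a pseudocount of 0.1 in place of 1, so its size depends on the pseudocount. Control mimic replicate 2 held 8 of the 12 control reads, and without it the log2 difference was -0.96 (limma p 0.253).

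Apol8 (ENSMUSG00000056656), at chr15:77747799-77755229 on the minus strand, had 2.21, 2.93 and 1.87 normalized counts in the control hearts and 4.30, 5.15 and 0.864 in the miR-19a/19b hearts. The miR-19a/19b hearts held both the highest and the lowest values. With 7 reads against 10, the ratio was 1.40 with an exact 95% interval of 0.482 to 4.34, and the log2 difference was 0.25 with a standard error of 0.58 (limma p 0.674). The log2 difference became -0.073 without miR-19a/19b mimic replicate 2, and 0.79 (limma p 0.192) without miR-19a/19b mimic replicate 3. No difference was detectable for Apol8 at this depth.

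Counted together, 3 of the 6 genes (Apol9a, Apol9b and Apol10b) were lower at an unadjusted limma p under 0.05, where 2.63% of the 21126 genes tested were. The same 3 had groups that did not overlap and were lower, where 5.3% of all genes tested were. None was higher by either measure, where 1.39% and 3.9% of all genes were. At an adjusted p under 0.05, limma called 0 genes of the whole table in either direction (0.0%), while 555 were lower and 293 higher at an unadjusted p under 0.05. EdgeR also called 0, and DESeq2 called 28 lower (0.133%), Apol9a and Apol9b among them, and 1 higher (0.00473%). DESeq2 gave no adjusted p for 6972 of the 21126 genes, Apol7c and Apol8 among them. Those could not be called, but the DESeq2 shares count them. Nothing is read from these shares, since the genes were chosen with this contrast known. The median log2 difference of all genes tested was 0.00, and that of the 9 Apol genes tested was -0.63.

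Of the Apol genes that had not been named, Apol7a, Apol7e and Apol7d were tested, and none had a limma p under 0.05. Apol7e and Apol7d were close to the detection limit, with means of 5.29 and 1.77 normalized counts. The mean of Apol7a was 12.5. Apol7a had 15.5, 10.7 and 17.8 normalized counts in the control hearts and 7.53, 13.4 and 10.4 in the miR-19a/19b hearts, a log2 difference of -0.46 with a standard error of 0.36 (limma p 0.231). Apol7e had 8.84, 9.76 and 1.87 in the control hearts and 1.08, 4.12 and 6.05 in the miR-19a/19b hearts, with a log2 difference of -0.67 (limma p 0.342). Both genes overlapped between the groups. Apol7d, which is listed on chromosome 1 and not in the cluster, rested on 4 reads against 7 and had a log2 difference of 0.32 (limma p 0.698). Apol10a and Apol11a were not analysed here.

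**Figure D2:**
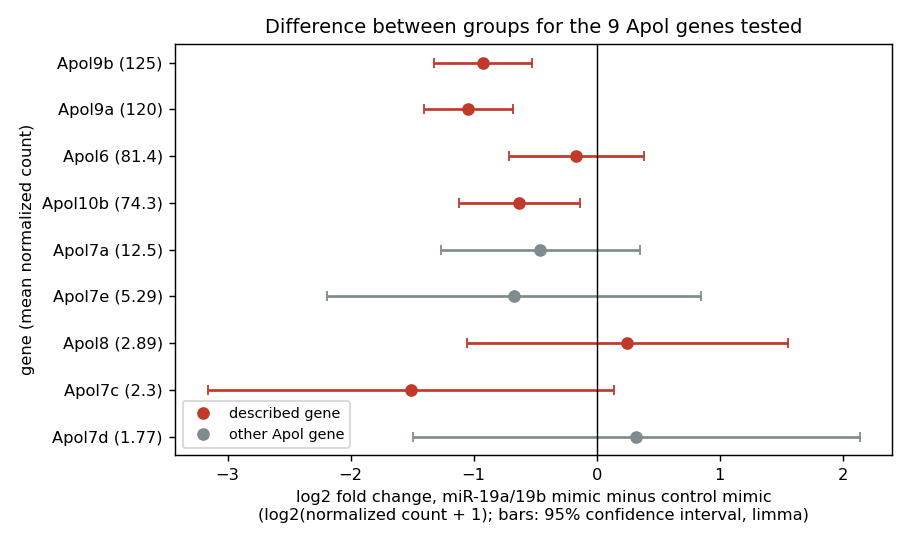
Log2 fold change of miR-19a/19b mimic against control mimic hearts (horizontal axis, on log2(normalized count + 1)) with its 95% confidence interval for the 9 Apol genes with a mean of at least 1, ordered by mean normalized count, which is given in parentheses. The intervals of Apol9a, Apol9b and Apol10b lie below 0 and those of the other 6 genes include it.

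Per kilobase of gene model, Apol9b and Apol9a stood highest, at 106 ± 6.25 and 102 ± 9.25 normalized counts per kb in the control hearts (SD, n = 3 each). These neighbours in the order differed by less than their spread. Apol10b followed at 45.7 ± 10.2 per kb, then Apol6 at 18.8 ± 1.92, Apol7c at 1.91 ± 1.70 and Apol8 at 0.876 ± 0.203, where the last pair again overlapped. In the miR-19a/19b hearts the levels per kb were 56.1 ± 9.95 for Apol9b, 49.5 ± 5.59 for Apol9a, 29.1 ± 4.45 for Apol10b, 17.3 ± 5.95 for Apol6, 1.29 ± 0.852 for Apol8 and 0.336 ± 0.582 for Apol7c. The order of the first 4 genes was the same in both groups.

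Relative to Apol6, the level of Apol9a and Apol9b together was 3.80, 3.61 and 4.11 times in the control hearts and 2.26, 2.69 and 1.67 times in the miR-19a/19b hearts, as ratios of normalized counts. The groups did not overlap in this ratio (exact permutation p 0.1, the smallest possible at 3 per group, 0.3 adjusted over 4 ratios). Relative to Apol10b it was 3.13, 3.57 and 4.27 times in the control hearts and 2.63, 2.53 and 3.46 times in the miR-19a/19b hearts, which overlapped. Over the 6 hearts, the log2 levels of Apol9a and Apol9b had a Pearson r of 0.976, in part from the reads they can share. That of Apol10b was 0.856 with Apol9a and 0.869 with Apol9b, and that of Apol6 was 0.457 with Apol9a, 0.444 with Apol9b and 0.241 with Apol10b. All these values share the same 6 libraries and the difference between groups, and describe them only.

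**Figure D3:**
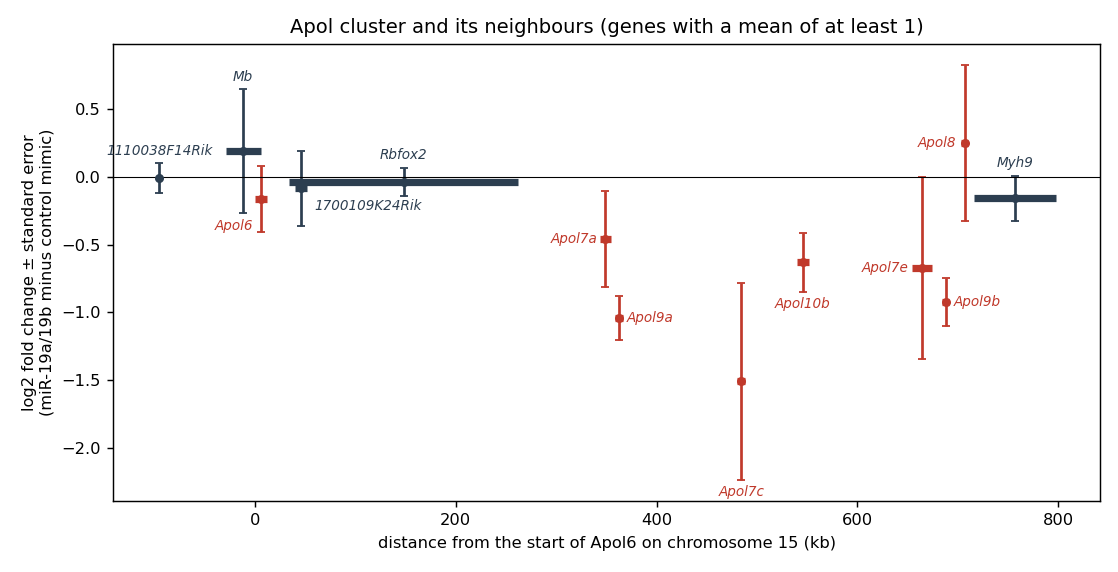
Log2 fold change (vertical axis; points with their standard error) of the genes with a mean of at least 1 against distance along chromosome 15 in kb from the start of Apol6, with horizontal bars for the length of each gene, Apol genes in red and others in dark blue. Apol9a, Apol10b and Apol9b lie between -0.63 and -1.04, while the genes that are not Apol genes lie between -0.16 and 0.19.

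The cluster from Apol6 to Apol8 spans 710.501 kb and holds 13 measured genes, of which 10 are Apol genes. The neighbours that are not Apol genes had log2 differences smaller than their standard errors. Rbfox2, a splicing factor gene between Apol6 and Apol7a, had 3379 ± 121 normalized counts in the control hearts and 3295 ± 294 in the miR-19a/19b hearts (log2 difference -0.04, limma p 0.720). The noncoding RNA 1700109K24Rik had 21.9 ± 4.49 and 20.3 ± 2.06 (-0.08, limma p 0.766), and Gm8221 was below a mean of 1. Outside the cluster, 1110038F14Rik on the Apol6 side had a log2 difference of -0.01 (limma p 0.923). Myh9, the nonmuscle myosin gene beside Apol8, had 26081 ± 1175 and 23494 ± 3135 normalized counts (-0.16, limma p 0.368).

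Genes with the most similar pattern over the 6 hearts were sought among 12734 genes with a mean of at least 50, by Pearson r of log2 levels. For Apol9a they were Utp20, a ribosome biogenesis gene (r = 0.993), the inhibitory B cell receptor Cd72 (0.991) and the leukocyte sialoglycoprotein Spn (0.980). For Apol9b they were Utp20 again (0.990), the interferon-induced Ifit2 (0.989) and the membrane protein gene Ms4a4c (0.989). Cd72 had 1084 to 1359 normalized counts in the control hearts and 561 to 673 in the miR-19a/19b hearts, and Ms4a4c had 821 to 899 and 307 to 521. Apol10b was most similar to the asparaginyl-tRNA synthetase gene Nars (0.996), the Golgi gene Yipf6 (0.988) and B2m, the light chain of MHC class I (0.983). Apol6 was most similar to the haematopoietic signalling gene Hcls1 (0.996), the autophagy gene Atg7 (0.993) and the transcription factor gene Tfe3 (0.992). Hcls1 was also highest in miR-19a/19b mimic replicate 3, at 2707 normalized counts against 1700 to 2374 in the other hearts. Among these genes, Ifit2 alone was on the interferon response list. That list is not complete, since Apol9a and Apol9b are not on it, so absence from it says little about a gene. These r values are the highest of 12734 over only 6 hearts, so values this high can arise from the search alone. They also carry the difference between the groups, and describe these hearts only.

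Since Apol genes are known as interferon targets, the parts of the interferon pathway were listed beside them. Of the interferon genes listed, Ifng had a mean of 1.48 normalized counts and Ifnb1 of 0.976, so both were at the detection limit. Ifnb1 was found in control mimic replicate 2 only, at 5.86 normalized counts. The other 8 ligands were not analysed here, so nothing is said of their levels. Of the 9 receptor and kinase genes, 7 were lower by sign, with a median log2 difference of -0.07 over the list. Limma gave an unadjusted p under 0.05 for 0 of the 9. Groups did not overlap and were lower for 3 (Ifngr1, Jak1 and Jak2), where 5.3% of all genes tested were. The most abundant of the 9 were Jak1 (-0.07) and Ifngr1 (-0.21), and Ifngr2 (0.03) and Ifnlr1 (0.02) were higher by sign. The levels of this list summed to 16401 to 17611 normalized counts in the control hearts and 15524 to 16348 in the miR-19a/19b hearts. Of 9 transcription factors, 4 were lower at an unadjusted limma p under 0.05, where 2.63% of all genes were, among them Irf7 (-0.73), Stat2 (-0.59) and Irf9 (-0.33). These 4 genes are also on the interferon response list. Irf3 went the other way by sign, at 0.07 (limma p 0.495). In the interferon response list, 52 of 52 genes were lower by sign, 47 at an unadjusted p under 0.05 and 0 at an adjusted p, with a median of -0.61. For comparison, 49.2% of all genes tested were lower by sign. The lists were chosen with earlier results of these data known, so these counts describe the lists and are not a test.

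The 3 most abundant genes of that list were Lgals3bp (log2 difference -0.52), Irf7 (-0.73) and Samhd1 (-0.33), and the 3 with the lowest log2 differences were Ifi44 (-1.18), Oas1g (-1.13) and Ifit1 (-1.05). Apol9a, at -1.04, lay close to Ifit1. Ifi44 had 648, 738 and 640 normalized counts in the control hearts and 230, 402 and 282 in the miR-19a/19b hearts, with its lowest value in replicate 1, like Apol9a and Apol9b. The mean log2 level of the list, relative to the control mean, reached -0.94, -0.43 and -0.52 in the miR-19a/19b hearts, in the order of their replicate numbers. That of the summed Apol9a and Apol9b was -1.22, -0.91 and -0.83 in the same hearts, of Apol10b -0.75, -0.39 and -0.75, and of Apol6 -0.46, -0.40 and 0.36. Replicate 3 thus had low Apol9a, Apol9b and Apol10b and high Apol6.

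**Figure D4:**
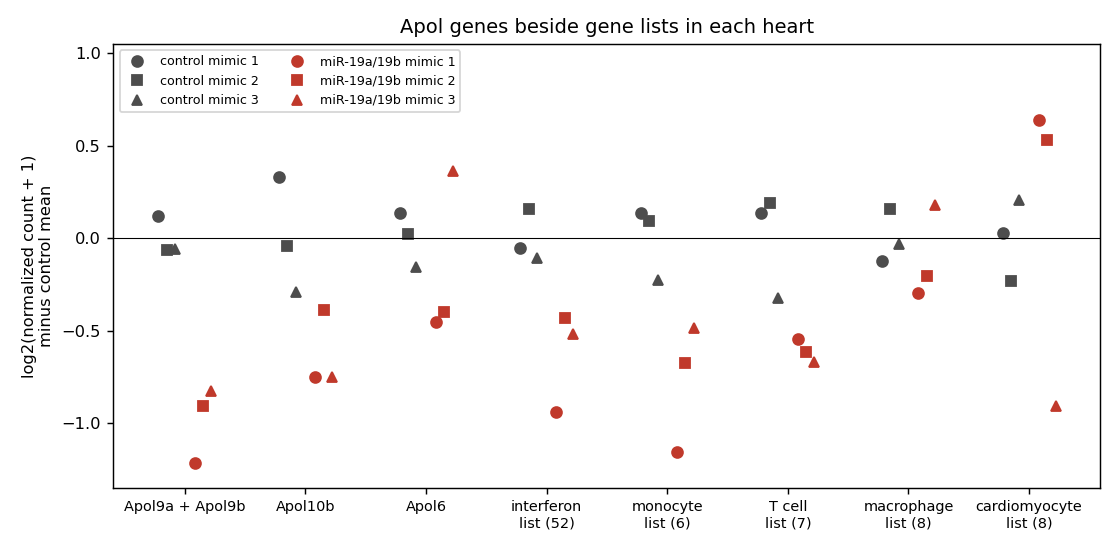
Log2(normalized count + 1) minus the mean of the control hearts (vertical axis) for Apol9a plus Apol9b, Apol10b, Apol6 and the mean of the genes of 5 lists, with the number of genes in parentheses and 1 point per heart, grey for control mimic and red for miR-19a/19b mimic hearts. Apol9a plus Apol9b, Apol10b and the interferon, monocyte and T cell lists have all red points below all grey ones, and the cardiomyocyte list is lowest in miR-19a/19b mimic replicate 3, at -0.91.

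Apolipoproteins of other families, which carry lipids in plasma, served as a contrast. Of 12 tested, 6 were lower and 6 higher by sign, 0 passed an unadjusted limma p of 0.05, and the median log2 difference was 0.04. Apoe, the most abundant, had a log2 difference of -0.26 (limma p 0.379) and Apod, the next, -0.07 (limma p 0.840). All other tested genes of this list were low, with means from 1.47 (Apoc4) to 10.2 (Apoa2) normalized counts. The counts by sign and by p are therefore limited by depth.

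In tissue RNA, fewer cells of a type and less RNA per cell cannot be told apart, and markers of some blood cells moved in the same direction as Apol9a, Apol9b and Apol10b. Over all genes tested, 49.2% were lower by sign and 2.63% were lower at an unadjusted limma p under 0.05. At an adjusted p under 0.05, limma called 0 genes, so no marker passed. Of 6 monocyte markers, 6 were lower by sign and 4 passed an unadjusted limma p of 0.05. They summed to 6628 to 8300 normalized counts in the control hearts and 3960 to 6131 in the miR-19a/19b hearts. Among those that passed were Ly6c2 (log2 difference -1.77), Plac8 (-0.92) and Ccr2 (-0.53). Of 7 T cell markers, 7 were lower by sign and 3 passed (Trac, Cd8a and Lck), with sums of 241 to 337 and 180 to 205 in the 2 groups. Of 8 dendritic cell markers, 4 passed, all lower (Xcr1, Flt3, Ccr7 and Cd209a), while Clec9a and Zbtb46 were higher by sign, and the sums were 1317 to 1430 and 1117 to 1372. Of 6 neutrophil markers, Retnlg passed, lower, with sums of 1897 to 2568 and 1047 to 3429. Of 8 macrophage and 5 B cell markers 0 passed, and these sums overlapped, at 50377 to 61465 and 43845 to 61540 for macrophages and at 159 to 185 and 130.2 to 249 for B cells. The 7 endothelial, 8 fibroblast and 8 cardiomyocyte markers had median log2 differences of 0.00, -0.02 and 0.12, and 0 passed. The cardiomyocyte sums were 863850 and 773610 normalized counts in miR-19a/19b mimic replicates 1 and 2, above the 477510 to 626250 of the controls, and 291520 in replicate 3. The share of reads on mitochondrial genes was likewise 6.86% and 6.93% in replicates 1 and 2, 4.18% to 5.88% in the controls and 3.18% in replicate 3. No marker of any list was at 0 in all hearts. The part of these cell types in the levels of the Apol genes was not tested.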

How the data were processed

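RNA-seq of 3 control mimic and 3 miR-19a/19b mimic hearts was analysed. The authors aligned reads with STAR (2.5.1b), counted them per gene with HTSeq (0.6.0) and normalized them, and the submitters' notes also name DESeq2 (1.10.1). The deposited signal is the read count of a gene after division by the size factor for that heart. Whole reads could be recovered from 100% of the values, within 0.01 of a read. Columns of the authors' own fold changes and p-values were not used.

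The groups were compared with limma (3.58.1, R 4.3.3, trended prior) on log2(normalized count + 1), restricted to 21126 genes whose mean reached 1, with Benjamini-Hochberg adjustment over all of them. Alternatives were edgeR's quasi-likelihood test (4.0.16) and DESeq2's Wald test (1.42.0) on recovered reads, TMM scaling, a pseudocount of 0.1, no filter, a mean of at least 10, the replicate number as a block, Apol9a and Apol9b summed, and each heart left out. The labels name the build mm9, but 82.74% of the 25884 gene identifiers found in GENCODE M21 (GRCm38) had both ends at the same positions, and coordinates are therefore those of GRCm38. Sequences came from RefSeq (GRCm38.p6) and GENCODE M21 and were read with Biopython (1.88).

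The members and lists were chosen with earlier results of these data known. Genes named are the members, the other Apol genes, their chromosomal neighbours, for members with a mean of at least 10 the 3 genes most similar over the hearts, and, within lists, the most abundant genes, those opposite in sign and, for the interferon response, the 3 with the lowest log2 fold changes. Markers that make up a count of 5 or fewer, and Mb, were named after their values were seen. Some list genes are not reported here by name. Counting intervals (exact, 95%) cover counting error only.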

Additional observations from a re-analysis of the deposited data

How the results depend on the processing

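The 4 genes with over 10 normalized counts kept their direction under all 14 alternatives, in which the log2 difference ranged from -1.13 to -0.97 for Apol9a, from -1.004 to -0.77 for Apol9b, from -0.78 to -0.46 for Apol10b and from -0.43 to -0.02 for Apol6. Adjusted p-values ranged from 0.000782 to 0.9999 for Apol9a and from 0.0121 to 0.9999 for Apol9b, and were under 0.05 with DESeq2 and without miR-19a/19b mimic replicate 3 only. Apol7c ranged from -3.44 to -0.96. Apol8 ranged from -0.073, without miR-19a/19b mimic replicate 2, to 0.79, without miR-19a/19b mimic replicate 3.

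DESeq2 called 28 genes lower and 1 higher at an adjusted p under 0.05, where limma called 0 in both directions. When 1 heart at a time was left out, limma called from 0 to 154 lower and from 0 to 361 higher, the largest counts being those without miR-19a/19b mimic replicate 3. The cause was not tested. Of the 6 Apol genes, the number lower at an unadjusted p under 0.05 was between 2 and 4 over all alternatives. Of all genes tested, 1.76% to 6.12% were, the highest share being that without miR-19a/19b mimic replicate 3. The number of the 6 whose groups did not overlap was between 3 and 5 with each heart left out, again highest without that heart. Smaller groups fail to overlap more readily, and the share over all genes was not computed for these settings, so nothing is read from this rise.

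Deviations of hearts with the same replicate number correlated at -0.01, -0.02 and -0.11, so the numbers were not taken to pair the hearts. With the replicate number as a block, limma called 0 genes lower and 0 higher at an adjusted p under 0.05 (434 and 207 at an unadjusted p under 0.05), and 4 of the 6 Apol genes were lower at an unadjusted p under 0.05, Apol7c being the added one. Apol7c and Apol8, at 14 and 17 reads in all, are limited by depth.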
